A study of Mus musculus with 12 samples.

Results

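The UDP-glucuronosyltransferases (UGTs) described here are 10 genes of the Ugt2 and Ugt3 families, taken by name from the 25676 genes of the deposited expression table: Ugt2a3, Ugt2b1, Ugt2b5, Ugt2b34, Ugt2b35, Ugt2b36, Ugt2b37, Ugt2b38, Ugt3a1 and Ugt3a2. They were measured by bulk RNA sequencing in whole livers of 12 mice, all of C57BL/6 background and 3 to 4 months old. The KO groups, 3 males and 3 females, lacked Yap1 through Cre recombinase expressed from Foxa3, and the WT groups were 3 males and 3 females called wild type and healthy. Yap1 encodes a transcriptional co-activator of the TEAD factors. The Foxa3 promoter is active in embryonic endoderm, from which hepatocytes and bile duct cells both arise. Other cells of the organ would then keep Yap1, which was not measured by cell type here. No label says whether WT animals carried Cre or a floxed allele. Levels are TPM, a share of each library's transcripts adjusted for gene length and scaled to a fixed sum.

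UGTs are enzymes of the endoplasmic reticulum that attach a sugar to small lipophilic molecules, which makes them soluble enough to leave in bile or urine. Enzymes of the Ugt2 family use UDP-glucuronic acid and act on steroids, bile acids, fatty acids and many drugs, and hepatocytes are their main site in the body. The Ugt3 enzymes use other UDP-sugars: human UGT3A1 transfers N-acetylglucosamine, and human UGT3A2 transfers glucose and xylose. In mouse liver, several genes of both phases of detoxification differ between the sexes under the influence of growth hormone and steroid hormones.

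The 8 Ugt2 members lie in 1 cluster on chromosome 5 of GRCm38. In order of position they are Ugt2b34 (chr5:86889767-86906937, minus strand), Ugt2b1 (chr5:86916638-86926530, minus), Ugt2b35 (chr5:87000860-87013275, plus), Ugt2b36 (chr5:87065927-87092555, minus), Ugt2b5 (chr5:87124960-87140318, minus), Ugt2b37 (chr5:87240493-87254804, minus), Ugt2a3 (chr5:87324972-87337195, minus) and Ugt2b38 (chr5:87409942-87424203, minus). Ugt3a1 (chr15:9276888-9315032) and Ugt3a2 (chr15:9335550-9370955) are neighbours on the plus strand of chromosome 15. Annotated coding sequences were 1569 to 1602 bases long. Those of Ugt2b38 and Ugt2b5 were identical at 97.0% of aligned positions, those of Ugt2b37 and Ugt2b5 at 94.7%, and those of Ugt2b37 and Ugt2b38 at 94.1%. Ugt3a1 and Ugt3a2 were identical at 93.2%, while the closest member to Ugt2b1 was Ugt2b34, at 74.8%.

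Such copies can share reads. Of all stretches of 150 bases in the annotated transcripts, 19.5% of those of Ugt2b5 also occurred in Ugt2b38, and 19.2% of those of Ugt2b38 occurred in Ugt2b5. No other pair of members shared a stretch of that length. At 50 bases, 41.7% of Ugt2b5, 37.4% of Ugt2b38 and 18.3% of Ugt2b37 stretches were shared with another member, against 7.19% for Ugt3a1, 6.39% for Ugt3a2 and 0 for Ugt2b1. How reads from shared stretches were assigned is not given in the sources used here, so the levels of Ugt2b5, Ugt2b37 and Ugt2b38 carry that uncertainty.

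The sequences before the start sites of these 3 related genes are shown because near-copied starts stood before genes with different patterns across sex and genotype. Each runs over the 250 bases before the RefSeq start of the gene, on the minus strand of GRCm38.p6: chr5:87140341-87140590 for Ugt2b5, chr5:87254789-87255038 for Ugt2b37 and chr5:87424204-87424453 for Ugt2b38. Capitals mark the letters AGGTCA, the half-site that many nuclear receptors bind.
Ugt2b5: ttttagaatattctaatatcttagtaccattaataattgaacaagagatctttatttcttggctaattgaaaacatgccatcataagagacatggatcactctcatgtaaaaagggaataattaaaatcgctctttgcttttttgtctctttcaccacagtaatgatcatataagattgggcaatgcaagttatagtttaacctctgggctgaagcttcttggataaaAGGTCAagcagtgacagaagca
Ugt2b37: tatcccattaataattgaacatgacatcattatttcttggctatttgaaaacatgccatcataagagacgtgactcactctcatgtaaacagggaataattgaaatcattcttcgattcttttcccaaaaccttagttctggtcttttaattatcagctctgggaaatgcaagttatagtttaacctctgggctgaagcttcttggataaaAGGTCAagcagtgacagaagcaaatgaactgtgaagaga
Ugt2b38: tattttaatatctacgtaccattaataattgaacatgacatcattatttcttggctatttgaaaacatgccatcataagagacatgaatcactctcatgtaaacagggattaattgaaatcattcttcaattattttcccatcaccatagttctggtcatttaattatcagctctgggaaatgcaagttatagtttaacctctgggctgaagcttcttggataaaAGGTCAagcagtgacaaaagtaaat
The Ugt2b37 and Ugt2b38 stretches were identical at 94.1% of 236 aligned positions, the Ugt2b38 and Ugt2b5 stretches at 85.1% of 249, and the Ugt2b37 and Ugt2b5 stretches at 83.9%. AGGTCA began 22 bases before the start in Ugt2b5, 25 bases before it in Ugt2b38 and 39 bases before it in Ugt2b37. RefSeq windows from 250 bases before to 50 bases after the start were at hand for 9 members, all but Ugt3a2, and were searched on both strands. AGGTCA was found in 5 of the 9 (Ugt2b35 and Ugt2b36 besides the genes above) and in 16.3% of 32851 windows of all genes. In Ugt2b5, Ugt2b36, Ugt2b37 and Ugt2b38 the same letters stood on both sides of it, so these matches are not independent of each other. GTTAAT, the HNF1 half-site, was found in Ugt2a3 and Ugt3a1 and in 7.10% of all windows. CATTCC, the core of the TEAD site, was found in Ugt3a1 alone among the members and in 14.7% of all windows. TTCNNNGAA, the STAT5 site, was in none of the member windows and in 8.30% of all windows. A match is a run of letters and not a shown binding site.

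Yap1 transcripts ranged from 23.0 to 34.9 TPM in WT livers and from 0.99 to 3.11 TPM in KO livers (log2 difference -3.36, exact permutation p = 0.005, two-sided, the smallest the design allows). The 4 Y-linked genes used as a check summed to 52.5 to 101 TPM in males and to at most 0.122 TPM in females. Steps in the low TPM values gave an estimated 24806586 to 35204727 reads per library, and 14321 to 15482 genes lay above 0. That estimate uses annotated exon lengths, which may not be those of the authors. The KO libraries stood apart from the WT libraries in scale: the median difference over all 12278 genes tested was 0.35 on the log2(TPM + 1) scale, and -0.04 after each library was rescaled by median of ratios. Changes are therefore given on the deposited scale and, where it matters, relative to that shift on the rescaled one. Hepatocyte markers (6 genes, all detected) summed to 74162 to 102330 TPM in WT and 56274 to 81587 TPM in KO, with 1 higher and 1 lower in KO on the deposited scale, and 0 higher and 3 lower (Alb, Ttr and Asgr1) after rescaling. All 5 Kupffer cell markers were higher in KO on the deposited scale (summed 57.7 to 199 TPM in WT, 258 to 538 TPM in KO), as were 3 of 5 leukocyte markers (7.44 to 28.5 TPM, then 41.5 to 104 TPM) and 3 of 5 stellate cell markers (52.5 to 150 TPM, then 80.9 to 219 TPM). Of 4 cholangiocyte markers tested, 2 were higher and 1 was lower, and of 5 endothelial markers 1 was higher. After rescaling, 4 Kupffer, 2 leukocyte and 1 cholangiocyte markers were called higher and 1 cholangiocyte marker lower; 1 stellate marker was higher and 1 lower (Lrat), and 1 endothelial marker was lower (Lyve1). Kidney tubule markers summed to at most 0.178 TPM in any library, and the sole intestinal marker tested, Fabp2, which liver also expresses, was lower in KO. The part of these cell markers in the UGT differences was not tested, and in whole liver fewer hepatocytes and less RNA per hepatocyte cannot be told apart.

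In WT males, Ugt2b5 was the most abundant of the 10 at 940.4 ± 73.3 TPM (SD, n = 3), and Ugt2b37 was the lowest at 2.54 ± 2.31 TPM. Between them stood Ugt2b1 (576 ± 133 TPM), Ugt2b36 (540.4 ± 72.4 TPM), Ugt3a2 (262 ± 11.2 TPM), Ugt2b34 (223 ± 31.9 TPM), Ugt2a3 (191 ± 8.04 TPM), Ugt2b35 (137 ± 12.9 TPM), Ugt3a1 (61.4 ± 5.34 TPM) and Ugt2b38 (26.4 ± 9.16 TPM). The neighbours Ugt2b1 and Ugt2b36 overlapped between livers, as did Ugt3a2 with Ugt2b34 and Ugt2b34 with Ugt2a3. In WT females the order was Ugt2b5, Ugt2b36, Ugt3a2, Ugt2b1, Ugt2a3, Ugt2b34, Ugt2b35, Ugt3a1, Ugt2b37 and Ugt2b38, with overlap between Ugt2b1, Ugt2a3 and Ugt2b34 and between Ugt2b35 and Ugt3a1. In both KO groups the order was Ugt2b5, Ugt2b36, Ugt2b34, Ugt2a3, Ugt2b35, Ugt3a2, Ugt2b1, Ugt3a1, Ugt2b37 and Ugt2b38. Ugt2b1 thus held the second place in WT males, the fourth in WT females and the seventh in KO livers of both sexes. In KO males the overlapping neighbours were Ugt2b36 with Ugt2b34, Ugt2a3 with Ugt2b35 and Ugt2b35 with Ugt3a2; in KO females the sole overlapping pair was Ugt2a3 with Ugt2b35.

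**Figure D1:**
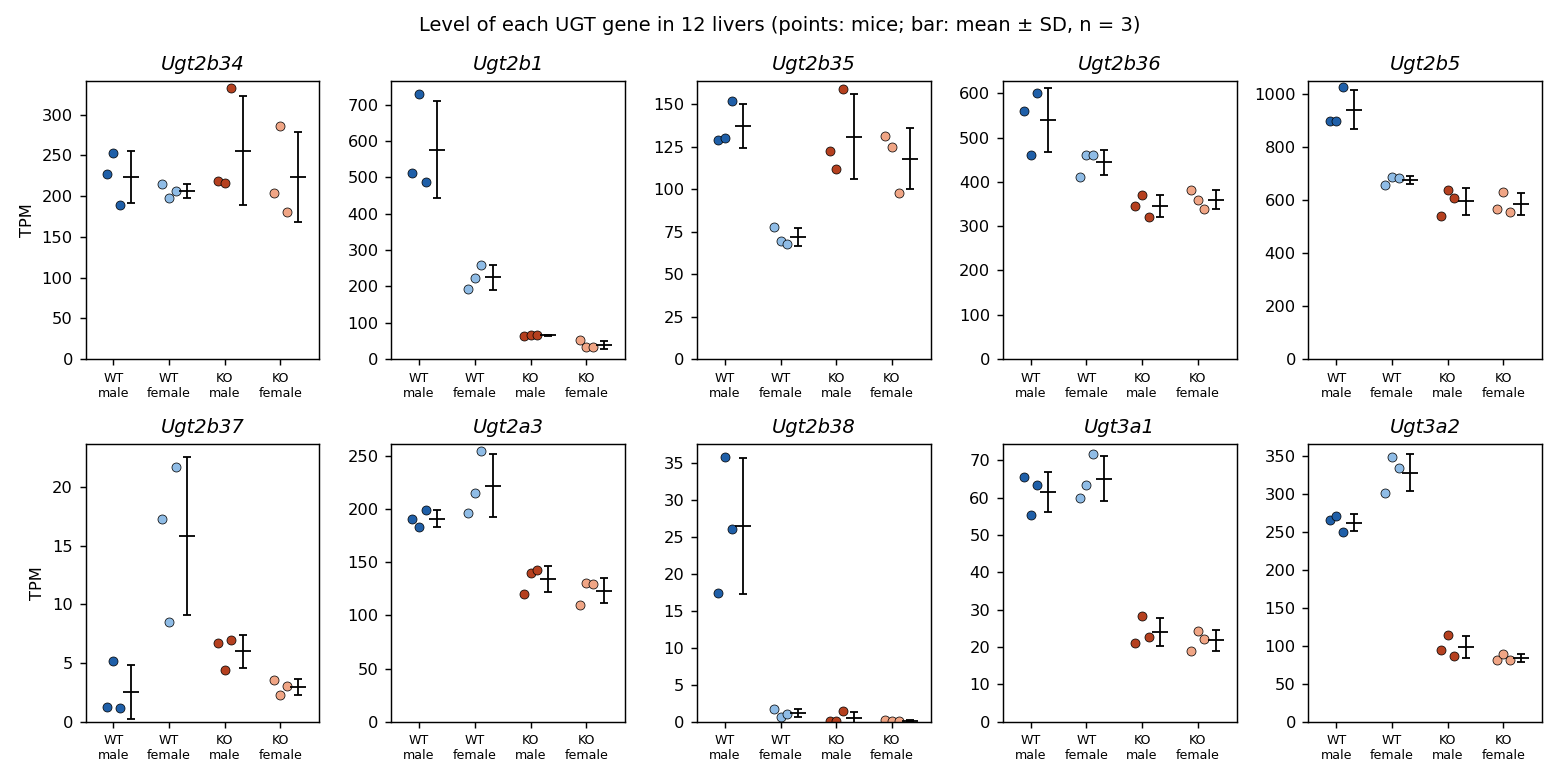
Level of each UGT gene in TPM (vertical axis, linear and starting at 0, its own range for each gene) in the 4 groups. Points are single livers and the bar beside them is the mean ± SD (n = 3); Ugt2b1, Ugt3a1 and Ugt3a2 lie lower in all KO livers, Ugt2b38 is high in WT males, and Ugt2b37 is highest in WT females.

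Removal of Yap1 was accompanied by lower levels of 7 of the 10 genes, and no member was higher, when both sexes were compared together with limma. On the log2(TPM + 1) scale as deposited, which understates the falls of low genes such as Ugt2b38, the 4 largest called falls were in Ugt2b38, Ugt2b1, Ugt3a2 and Ugt3a1 in males and in Ugt2b1, Ugt2b37, Ugt3a2 and Ugt3a1 in females. Across all genes tested, 54.9% passed the same test, but 4.82% did so as lower in KO. The median log2 difference of the members was -0.57, against 0.35 for all genes. All 6 KO livers lay below all 6 WT livers in 6 members (Ugt2a3, Ugt2b1, Ugt2b5, Ugt2b36, Ugt3a1 and Ugt3a2), a separation found in 1.88% of all genes tested. After rescaling, the members called were again 7, all lower, with a median of -1.04 against -0.04; of all genes, 39.6% were then called and 18.7% were called and lower in KO. The authors' deposited table gave an FDR p-value printed as 0 and a negative log2 fold change for the members called here, from -1.01 for Ugt2b36 to -6.33 for Ugt2b38, and FDR p-values of 0.16, 0.28 and 0.3 for Ugt2b34, Ugt2b35 and Ugt2b37. The log2 fold changes in the authors' deposited table were negative for these as well (-0.52, -0.41 and -0.77), opposite in sign to the values computed here on the deposited scale for Ugt2b34 (0.13) and Ugt2b35 (0.31) and of the same sign as the rescaled ones (-0.33 and -0.15).

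Ugt2b1 and Ugt2b38 had the largest differences over both sexes on the log2(TPM + 1) scale. Ugt2b1 levels in the 3 WT males were 512, 730 and 487 TPM, and in the 3 KO males they were 63.4, 66.2 and 66.9 TPM. WT females had 193, 222 and 258 TPM and KO females 51.1, 34.1 and 32.3 TPM. Every KO liver of either sex lay below every WT liver, and the KO males were within a narrow band. WT means were 8.79 times the KO mean in males and 5.73 times in females. The log2 difference was -2.80 (SE 0.158, limma adjusted p = 1.58e-08) over both sexes, -3.09 in males and -2.51 in females, and these did not differ detectably between the sexes (difference -0.59, adjusted p = 0.581).

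The Ugt3 pair on chromosome 15 fell in both sexes. Ugt3a2 was at 266, 272 and 249.99 TPM in WT males and at 302, 350 and 334 TPM in WT females. In KO males it was at 94.5, 115 and 86.6 TPM, and in KO females at 81.1, 89.9 and 81.1 TPM. The lowest WT liver was thus more than the highest KO liver by a wide margin in each sex. The log2 difference was -1.68 (SE 0.118, limma adjusted p = 1.21e-07). Split by sex it was -1.41 for males and -1.95 for females (interaction adjusted p = 0.378). Ugt3a1, the less abundant of the pair, was at 65.6, 55.4 and 63.4 TPM in WT males, 59.9, 63.4 and 71.8 TPM in WT females, 21.1, 28.3 and 22.6 TPM in KO males and 18.9, 24.2 and 22.1 TPM in KO females. The groups were separate by genotype and overlapped by sex. Its log2 difference was -1.44 (SE 0.107, limma adjusted p = 2.19e-07), with -1.33 for males and -1.54 for females (interaction adjusted p = 0.780).

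Ugt2a3, Ugt2b36 and Ugt2b5, 3 abundant genes of the chromosome 5 cluster, had smaller differences. Human UGT2A3 is known for conjugating bile acids. Ugt2a3 was at 190.4, 183 and 199 TPM in WT males, 196, 215 and 254 TPM in WT females, 120.4, 139.7 and 142 TPM in KO males and 110.0, 130.2 and 129.5 TPM in KO females. Its KO livers lay below its WT livers in each sex, and the log2 difference was -0.67 (SE 0.104, limma adjusted p = 1.32e-04), called in males (-0.51, adjusted p = 0.00950) and in females (-0.84, adjusted p = 4.94e-04). After rescaling it was -1.14 over both sexes and -1.08 in males.

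Ugt2b36 was at 559.6, 460.4 and 601 TPM in WT males and at 411, 460.7 and 460.1 TPM in WT females. In KO males it was at 344, 369.9 and 320.2 TPM, and in KO females at 381, 359 and 338 TPM. Every KO liver was below every WT liver, by a small margin in females. The log2 difference was -0.47 (SE 0.104, limma adjusted p = 0.00189), -0.64 in males (adjusted p = 0.00233) and -0.30 in females (adjusted p = 0.10002). Ugt2b5 was at 897, 899.6 and 1025 TPM in WT males, 657, 685 and 684 TPM in WT females, 540.1, 639 and 608 TPM in KO males and 568, 632 and 556 TPM in KO females. KO males and KO females overlapped and lay just under the WT females. Its log2 difference was -0.43 (SE 0.107, limma adjusted p = 0.00402), -0.66 in males (adjusted p = 0.00123) and -0.21 in females (adjusted p = 0.224). After rescaling, the differences over both sexes and in males were -0.94 and -1.22 for Ugt2b36 and -0.90 and -1.24 for Ugt2b5. On the rescaled values the female differences of Ugt2b36 and Ugt2b5 were -0.66 and -0.56 (limma adjusted p = 0.00533 and 0.0125), so both passed the threshold there. That of Ugt2b36 also passed without the 20 most abundant genes (-0.37, limma adjusted p = 0.042).

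Ugt2b38 was abundant in no group but WT males, with 17.5, 35.8 and 26.1 TPM, or an estimated 362, 830 and 645 reads. WT females had 1.69, 0.648 and 1.09 TPM (33, 13 and 29 reads), KO males 0.0562, 0.113 and 1.40 TPM (1, 2 and 23 reads), and KO females 0.276, 0.110 and 0.0990 TPM (6, 2 and 2 reads). KO male replicate 3 overlapped the WT females, while the other 5 KO livers lay below them. The log2 difference was -2.54 (SE 0.511, limma adjusted p = 9.85e-04) over both sexes and -4.22 (SE 0.321, adjusted p = 9.51e-07) in males. Leaving out 1 library at a time moved the male value between -4.61 and -3.99. In females the difference was -0.86 (adjusted p = 0.0565). The size of these values depended on the pseudocount: with 0.1 in place of 1 they were -4.17 over both sexes, -6.11 in males and -2.22 in females (limma adjusted p = 0.0273). The female difference also passed the threshold after rescaling (-0.95, adjusted p = 0.0415), without the 20 most abundant genes (-1.13, adjusted p = 0.0405) and when WT male replicate 1, WT male replicate 2 or KO male replicate 3 was left out of the shared fit (adjusted p 0.0186 to 0.0462). Ugt2b5, with which Ugt2b38 shares transcript stretches, stood at 540.1 to 639 TPM in the KO livers; whether shared reads entered the Ugt2b38 values was not tested.

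The other 3 genes did not pass the test over both sexes. Ugt2b34, next to Ugt2b1 in the cluster, was at 227, 253 and 189 TPM in WT males, 214, 197 and 206 TPM in WT females, 219, 216 and 333 TPM in KO males and 204, 286 and 181 TPM in KO females. WT and KO overlapped within each sex, with 1 high liver in each KO group. The log2 difference was 0.13 (SE 0.141, limma adjusted p = 0.435) on the deposited scale and -0.33 (adjusted p = 0.0935) after rescaling, so its sign depended on the scale.

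Ugt2b35 was at 129.2, 129.9 and 152 TPM in WT males, 77.8, 69.7 and 67.6 TPM in WT females, 122, 112 and 159 TPM in KO males and 131, 125 and 97.7 TPM in KO females. WT females stood alone as the low group. In females the gene rose by 0.70 on the log2 scale (SE 0.162, limma adjusted p = 0.00520), a call lost after rescaling (0.35, adjusted p = 0.0878), and in males the difference was -0.08 (adjusted p = 0.716) and -0.65 after rescaling (adjusted p = 0.00539). Over both sexes the value was 0.31 (adjusted p = 0.1002) and -0.15 after rescaling; without KO male replicate 2 it was 0.40 and passed (adjusted p = 0.0374).

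Ugt2b37 was at 1.25, 5.21 and 1.17 TPM in WT males, or an estimated 26, 121 and 29 reads, and at 17.3, 8.52 and 21.7 TPM in WT females, or 338, 171 and 579 reads. KO males had 6.68, 4.41 and 6.97 TPM (119, 78 and 115 reads) and KO females 3.54, 2.25 and 3.07 TPM (77, 41 and 62 reads). WT females were above all other livers, and WT male replicate 2 stood apart from the other 2 WT males and within the KO male range. In females the gene fell by 2.02 on the log2 scale (SE 0.394, limma adjusted p = 0.00180). In males it rose by 1.15 (SE 0.394, adjusted p = 0.0307), a call that was lost after rescaling (0.71, adjusted p = 0.264) and when WT male replicate 1 or 3, or KO male replicate 1 or 3, was left out (adjusted p 0.0772 to 0.110). It was also lost without a filter on low values (adjusted p = 0.0615), and in a fit of the 6 males alone 7 members were called, 0 of them higher. With these opposite signs, the value over both sexes was -0.43 (adjusted p = 0.490). It was -0.79 after rescaling (adjusted p = 0.238), and it ranged from -0.72 without WT male replicate 3 to -0.14 without WT female replicate 3, not called in any of these.

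Counted by sex, 7 members fell and Ugt2b37 rose in males, where 46.1% of all genes were called and 2.81% were called and lower in KO. In females 5 fell and Ugt2b35 rose, against 33.8% of all genes called and 4.68% called and lower in KO. A fit of the 6 females alone called 7 members, 6 of them lower and 1 higher. After rescaling, 8 fell and none rose in each sex, against 24.1% of all genes called and 10.2% called and lower in males, and 26.1% and 10.9% in females: the call on Ugt2b35 in males and those on Ugt2b5, Ugt2b36 and Ugt2b38 in females were gained, and the rises were not called.

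**Figure D2:**
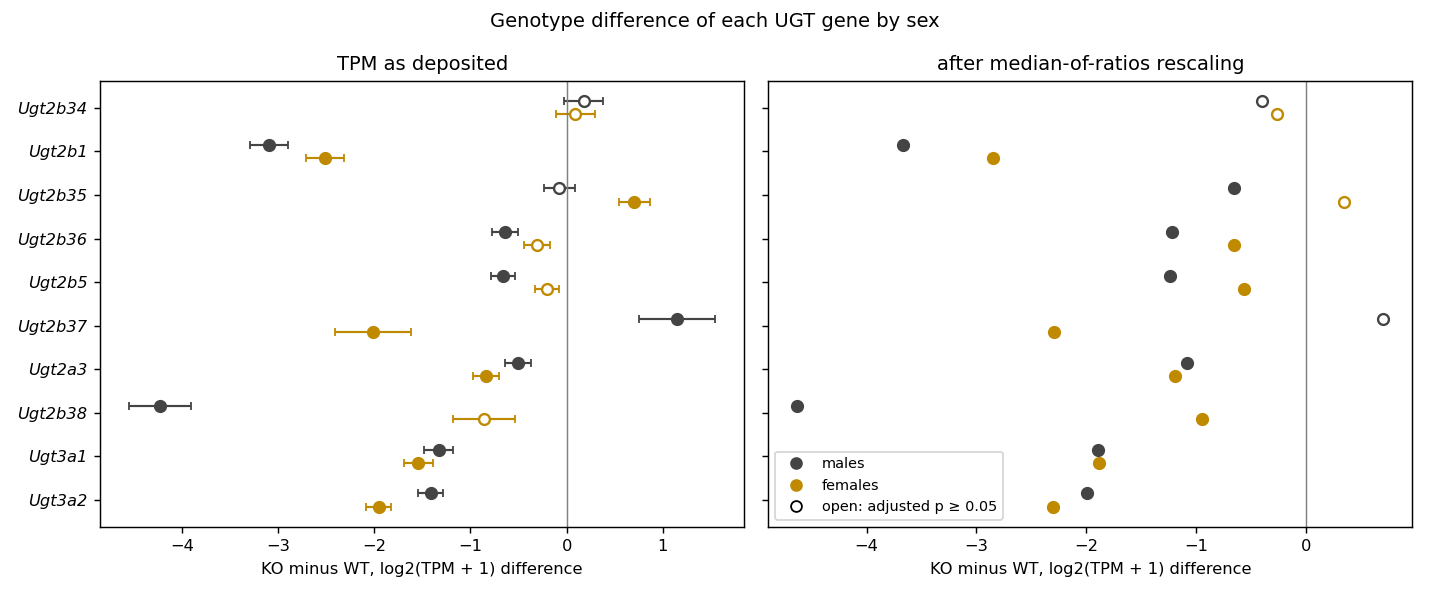
KO minus WT difference of each UGT gene in males and in females, in log2(TPM + 1) units, genes in chromosomal order from top to bottom (chromosome 5, then the Ugt3 pair). Bars at left are ± 1 SE from limma and filled points have an adjusted p under 0.05; Ugt2b38 and Ugt2b37 are the members whose male and female values lie farthest apart, and rescaling (right, without bars) moves all values to the left.

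The comparison of males with females asked how the UGT genes differed by sex in WT and whether the difference was present in KO. In WT livers 5 members differed, 4 of them higher in males, while in all genes 5.74% differed and 1.14% were higher in males. Ugt2b38 had 23.1 times the mean level in WT males that it had in WT females (log2 difference 3.65, SE 0.321, limma adjusted p = 1.27e-05). Ugt2b1 was 2.57 times as high in males (1.34, adjusted p = 0.00135) and Ugt2b35 was 1.91 times as high (0.92, adjusted p = 0.00550). Ugt2b37 went the other way and was 6.23 times as high in WT females (-2.34, adjusted p = 0.00395). That ratio depends on WT male replicate 2, at 5.21 TPM beside 1.25 and 1.17 TPM in the other WT males. Leaving out 1 library at a time moved the log2 difference between -2.84 and -2.08. Ugt2b5 was 1.39 times as high in males, near the threshold (0.47, adjusted p = 0.0449), and that call was lost in 10 of 12 fits that each left out 1 library (adjusted p 0.0531 to 0.146): those without any one WT liver, KO male replicate 1 or 2, or KO female replicate 1 or 3. It was also lost without an intensity trend (adjusted p = 0.0562). A covariate for WT female replicate 3 and KO female replicate 1, whose sample titles carry low LM codes, ended it too (adjusted p = 0.0962). A fit of the 6 WT livers alone called 4 members, 3 of them higher in males. After rescaling the Ugt2b5 difference was 0.70 and was called (adjusted p = 0.0166). On that scale 5 members were again called, 4 of them higher in males, beside 538 of 12278 genes called and 259 higher in males. The other 5 members were not called. Among them Ugt3a2 was lower in every WT male than in every WT female, with a difference of -0.32 (adjusted p = 0.154), or -0.09 after rescaling (adjusted p = 0.770). Markers of other cells also differed by sex in WT: Kupffer markers summed to 57.7 to 61.7 TPM in WT males and 92.8 to 199 TPM in WT females, and stellate markers to 52.5 to 75.0 TPM and 96.1 to 150 TPM. Clec4f, Vsig4 and Dcn, of 5 Kupffer and 5 stellate markers, were called lower in males (limma adjusted p 0.0315, 0.0419 and 0.0370), and none of these after rescaling. Hepatocyte markers summed to 74162 to 88309 TPM in WT males and 97916 to 102330 TPM in WT females, with none of 6 called. The part of these markers in the sex differences was not tested.

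In KO livers none of the 10 passed the limma test for sex, and 0.0814% of all genes tested did. At an unadjusted p under 0.05 there was 1 member, Ugt2b1 (0.76, unadjusted p = 0.00221, adjusted p = 0.692), with 63.4 to 66.9 TPM in KO males and 32.3 to 51.1 TPM in KO females. Ugt2b37 also had no overlap between KO males and KO females, at 0.82 (adjusted p = 0.859). The difference between the genotypes in the sex effect was called for 2 members, Ugt2b38 (-3.37, SE 0.455, limma adjusted p = 0.00162) and Ugt2b37 (3.16, SE 0.557, adjusted p = 0.0150), and for 0.912% of all genes. A negative value here means a more negative KO minus WT difference in males than in females. In WT females Ugt2b38 held a mean of 1.14 TPM, which left little room to fall on the log2(TPM + 1) scale. The interaction of Ugt2b38 was lost with a pseudocount of 0.1 (-3.89, adjusted p = 0.134). That of Ugt2b37 was lost without WT female replicate 1 (adjusted p = 0.0538), KO male replicate 1 (0.0547) or KO male replicate 3 (0.0656), and without a filter on low values (0.0557). That of Ugt2b35 was -0.78 (adjusted p = 0.250) and passed after rescaling (-1.004, adjusted p = 0.0388). For Ugt2b1 and Ugt2b5, which also differed by sex in WT, the interactions were -0.59 (adjusted p = 0.581) and -0.45 (adjusted p = 0.467), so a change of their sex difference was not shown.

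**Figure D3:**
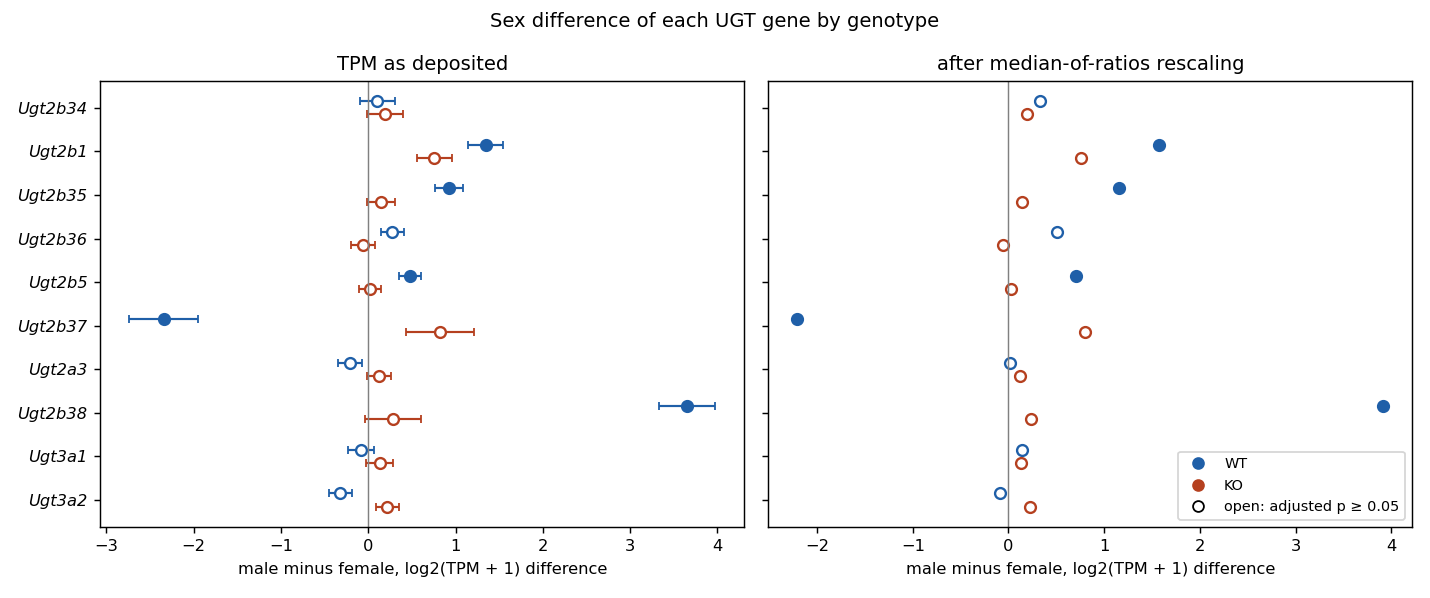
Male minus female difference of each UGT gene in WT and in KO livers, in log2(TPM + 1) units, as deposited (left, bars ± 1 SE from limma) and after rescaling (right). Filled points have an adjusted p under 0.05; these are all WT points, from Ugt2b38 at 3.65 to Ugt2b37 at -2.34, and the KO points lie between -0.06 and 0.82 on the left.

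Transcripts of the 10 members summed to 2961 ± 84.7 TPM in WT males, 2254 ± 116 TPM in WT females, 1656 ± 112 TPM in KO males and 1557 ± 121 TPM in KO females (SD, n = 3 each). The WT sexes did not overlap in this sum and the KO sexes did. The 12 other UGT genes are not in it, and their sum differed between the WT sexes in the other direction. They summed to 706 to 814 TPM in WT males and 1190 to 1213 TPM in WT females. In KO males they summed to 736 to 794 TPM and in KO females to 695 to 832 TPM. The make-up of the 10-gene sum also differed. Ugt2b1 gave 19.4 ± 4.16% of it in WT males and 3.96 ± 0.159% in KO males, and 9.92 ± 0.968% in WT females and 2.52 ± 0.680% in KO females. Ugt3a2 gave 8.87% in WT males and 14.6% in WT females, but 5.97% and 5.40% in KO males and KO females. The share of Ugt2b34, whose own level did not pass the test, was 7.53 ± 1.07% in WT males and 15.4 ± 3.28% in KO males, and 9.16 ± 0.783% and 14.2 ± 2.41% in females. Ugt2b5 remained the largest part, at 31.8% and 30.0% in WT males and females and 36.0% and 37.6% in KO.

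**Figure D4:**
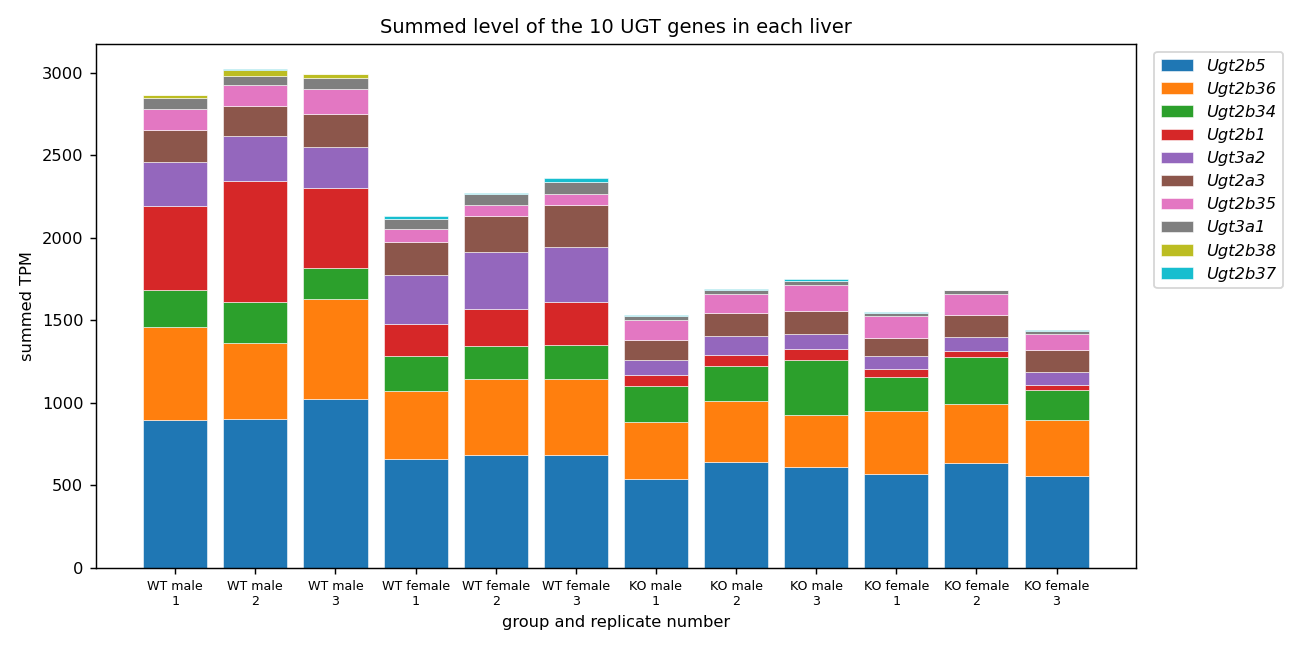
Summed TPM of the 10 UGT genes (vertical axis, linear from 0) in each of the 12 livers, with each gene as a coloured part of the bar. WT male bars reach 2864 to 3023 TPM, WT female bars 2130 to 2359 TPM and KO bars 1440 to 1747 TPM, and the red Ugt2b1 part is narrow in every KO liver.

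Other UGT genes were followed as a list of 12, of which 7 were abundant enough to test. Over both sexes 2 of them rose and 2 fell, with a median of -0.30; after rescaling none rose and 3 fell, with a median of -0.51. Ugt1a5 fell by 1.39 (limma adjusted p = 0.00511), with 207 ± 29.8 TPM in the WT females, 44.2 ± 8.78 TPM in the WT males, 32.7 ± 4.27 TPM in the KO females and 39.1 ± 4.39 TPM in the KO males. Ugt1a1, the bilirubin-conjugating enzyme, fell by 0.51 (adjusted p = 0.00559), with -0.89 in females (adjusted p = 1.18e-04) and -0.13 in males (adjusted p = 0.378); after rescaling the male value was -0.71 and was called (adjusted p = 0.00304). In the same list the phenol-conjugating Ugt1a6b rose by 0.65 (adjusted p = 0.00122), a rise not called after rescaling (0.19, adjusted p = 0.391). Ugt1 transcripts share their last exons, so reads can be split between them. Like Ugt2b37, Ugt1a5 had its highest level in the WT females, and its interaction was 2.46 (limma adjusted p = 9.92e-05).

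Genes around the reaction moved in both directions. Counts of called genes in these lists are to be read beside the 54.9% of all genes called (39.6% after rescaling). The median log2 difference was 0.57 for UDP-glucuronic acid supply and 0.19 for glucuronide transport and hydrolysis. For glucuronate use and later steps it was -0.55 and for the transcription factors 0.07, against 0.35 for all genes. After rescaling these medians were 0.15, -0.25, -0.99 and -0.39, against -0.04. Of 6 genes listed for the supply of UDP-glucuronic acid, 4 rose and 1 fell, and after rescaling 2 rose and 1 fell. Among the 4 is Uxs1, whose enzyme does not supply UDP-glucuronic acid but converts it to UDP-xylose (0.63, limma adjusted p = 0.00154, not called after rescaling). Ugdh, which makes UDP-glucuronic acid from UDP-glucose, rose from 97.8 ± 14.5 TPM in WT to 375 ± 62.2 TPM in KO (SD, n = 6; log2 difference 1.92, limma adjusted p = 5.90e-08). Pgm2, a phosphoglucomutase, rose from 2.61 to 9.48 TPM (1.56), and Ugp2, which makes UDP-glucose, fell by 0.65 from 209.9 to 132 TPM. The more abundant Pgm1 was at 136 TPM in WT and 157 TPM in KO. It was not called on either scale (0.20, limma adjusted p = 0.105, and -0.26 after rescaling). Of 7 genes of glucuronide transport and hydrolysis 3 rose and 2 fell, and after rescaling 3 rose and 3 fell. The uptake carrier gene Slco1a1 fell by 6.18 on the log2 scale, from 140.2 ± 90.9 TPM to 0.638 ± 0.438 TPM, the lysosomal glucuronidase gene Gusb rose by 1.51, and Abcc3, which exports glucuronides to blood, rose by 1.12 from 116 to 254 TPM. Of 5 tested genes listed for glucuronate use and later steps, 1 rose and 2 fell, and after rescaling none rose and 3 fell. Not all of their enzymes act on glucuronate itself. Rgn, of the ascorbate pathway, fell by 1.19, Dcxr fell by 0.89 and Akr1a1 rose by 0.51, the last not called after rescaling (0.05).

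Among 11 transcription factors known to act on UGT genes, 4 rose and 1 fell, and after rescaling 1 rose and 5 fell. Ppara, the fatty acid receptor, fell by 1.27 (limma adjusted p = 2.57e-04), from 39.1 ± 12.3 TPM to 15.3 ± 3.68 TPM. Ahr, the dioxin receptor, rose by 0.99 (adjusted p = 1.93e-04), from 14.7 to 30.8 TPM, and by 0.55 after rescaling (adjusted p = 0.0232). Nfe2l2, which encodes NRF2, rose by 0.94 (adjusted p = 0.00347), a call lost after rescaling (0.48, adjusted p = 0.0514).

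For the 4 members that varied most over the 12 livers, the genes with the most similar course were found by the root mean square difference of centred log2(TPM + 1) values over the 12 samples, outside the Ugt families. For Ugt2b38 these were Nat8 (0.544), Slc22a28 (0.620) and Nat8f5 (0.659). Nat8, an N-acetyltransferase gene, was at 31.5 ± 7.11 TPM in WT males, 2.18 ± 0.967 TPM in WT females and under 1 TPM on average in both KO groups. For Ugt2b1 they were Sdr9c7 (0.405), Nudt7 (0.435) and Cyp2f2 (0.490), the last a cytochrome P450 gene whose mean was 1481 TPM in WT males, 901 TPM in WT females, 126 TPM in KO males and 94.0 TPM in KO females. For Ugt2b37 they were Cyp2c39 (0.596), Esr1 (0.650) and Acss3 (0.650). Esr1, the oestrogen receptor alpha gene, was at 4.04, 14.1, 7.27 and 6.53 TPM in WT males, WT females, KO males and KO females. For Ugt3a2 they were Cyp2c50 (0.203), Chic1 (0.260) and Slc10a1 (0.260), the last the main bile acid uptake carrier gene, with 379 and 562 TPM in WT males and females and 199 and 169 TPM in KO. All genes compared share the same libraries.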

How the data were processed

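RNA from 12 frozen mouse livers was sequenced on Illumina libraries, per the labels' protocols. The authors deposited TPM for 25676 genes, each column summing to 1000000, with a log2 fold change and FDR p-value of their own, per the file headers. The submitters' processing notes name edgeR and GRCm38; the aligner and counter are not given in the sources used here. All sample columns were matched by name to 1 sample each, and groups came from the labels. Nothing besides the labels says that samples are separate mice, so p-values measure the spread between samples.

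The 12278 genes whose mean TPM reached 0.5, all 10 members among them, were analysed as log2(TPM + 1) with limma 3.58.1 in R 4.3.3 (eBayes with intensity trend), two-sided, Benjamini-Hochberg adjusted over all genes tested, threshold 0.05. Such differences understate changes of low genes. The genotype fit used all 12 samples with sex as covariate; differences by sex, and the interaction (male minus female genotype difference), came from 1 model of the 4 group means. The fit was tested on simulated data. Yap1 was tested by exact permutation of genotype within sex (400 arrangements). Alternatives were another pseudocount (0.1), filter (none, or 5) or scaling (median of ratios, or without the 20 most abundant genes), and no trend. Others were a covariate for low LM codes in the sample titles, only the 6 samples compared, and each sample left out.

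Within groups, 12 pairs of libraries correlated at 0.967 to 0.990 across genes and none held identical values. The CRRA code of WT male replicate 2 in the column headers belongs to another number series. The LM codes of KO female replicate 1 and WT female replicate 3 are far below the others. No label says what these codes stand for. None of these samples can be tested within its own series, which holds at most 1 sample a group. Positions, transcripts and coding lengths came from GENCODE M21 (GRCm38), and start-site windows from RefSeq (GRCm38.p6), which matched 9 of 10 members. The members and lists were chosen with earlier results of these data known. The naming rule took all members, Yap1, from each list of pathway genes at most the 3 largest called genotype differences, and for the 4 most variable members the 3 genes most like them. Fabp2 was named as the sole tested gene of its list. Marker genes, Pgm1 and Uxs1 were named after their values were seen. Proteins were not analysed here.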

Additional observations from a re-analysis of the deposited data

Results flagged for a closer look

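Ugt2b38 and Ugt2b37 were singled out because the KO minus WT difference in males differed from that in females by the interaction test. For Ugt2b38 the male difference minus the female difference was -3.37 (SE 0.455, limma adjusted p = 0.00162), from -4.22 in males and -0.86 in females. For Ugt2b37 it was 3.16 (SE 0.557, limma adjusted p = 0.0150), from 1.15 in males and -2.02 in females. The Ugt2b38 value rests on 1 to 23 estimated reads in the KO males and 2 to 6 in the KO females. WT females held a mean of 1.14 TPM of Ugt2b38, against 26.4 TPM in WT males. So low a WT level limits how far the females could fall on the log2(TPM + 1) scale. The test therefore cannot compare the sexes on equal terms for this gene. With a pseudocount of 0.1 in place of 1, the Ugt2b38 value was -3.89 (adjusted p = 0.134), and without a filter the Ugt2b37 adjusted p was 0.0557. The 2 genes share 11.5% of their 50-base transcript stretches; the part of read assignment in either value was not tested.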

How the results depend on the processing

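Over 1140 recomputed member differences, 1084 kept their direction and side of the threshold, 24 lost a call, 12 gained one and 20 changed sign, 0 of these past the threshold. The number of members called over both sexes was 7 or 8 when any 1 library was left out. Rescaling turned the sign of Ugt2b34 (-0.33 over both sexes, -0.40 in males, -0.26 in females, -0.14 for the interaction), Ugt2b35 over both sexes (-0.15), Ugt2a3 by sex in WT (0.018) and Ugt3a1 by sex in WT (0.14) and in the interaction (-0.014). Leaving out 1 library at a time gave ranges that crossed 0 for Ugt2b34 in males (-0.027 to 0.29), in females (-0.10 to 0.23), by sex in KO (-0.013 to 0.38) and in the interaction (-0.12 to 0.28), Ugt2b35 in males (-0.22 to 0.030) and by sex in KO (-0.0020 to 0.25), and Ugt2b5 (-0.028 to 0.094) and Ugt2b38 (-0.10 to 0.49) by sex in KO. Members called in the interaction numbered 2, and 3 after rescaling. They numbered 1 with a pseudocount of 0.1, 1 without a filter and 1 to 2 when a library was left out. Over all genes, a mean TPM of at least 5 left fewer genes to test, with 4453 called over both sexes (6745 otherwise), 3762 in males (5663), 2656 in females (4151) and 6 by sex in KO (10, with 655 at an unadjusted p under 0.05). Rescaling gave 2959 in males. It also changed the split of genes higher and lower in KO from 6153 and 592 to 2568 and 2293 over both sexes, from 5318 and 345 to 1702 and 1257 in males, and from 3577 and 574 to 1872 and 1337 in females; by sex in WT, 140 higher and 565 lower in males became 259 and 279. In the interaction 72 positive and 40 negative became 55 and 48. Sex in WT gave 705 genes, 409 with the covariate for low LM codes, and 290 to 1696 with 1 library left out. The count was 1696 without WT male replicate 3 and 290 to 446 without any other WT liver, lowest without WT male replicate 2. Sex in KO gave 6 (without KO male replicate 2) to 10 and the interaction 75 to 176 (without WT male replicate 3). The cause of these shifts was not tested. No paired analysis was possible because replicate numbers were given in accession order and pair no samples. Depth limits Ugt2b38 in KO livers, where 5 of 6 libraries held at most 6 estimated reads.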
